A study of Mus musculus with 6 samples.

Results

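The 33 genes described here encode proteins that build ribosomes in the nucleolus. They were taken by symbol from a list of nucleolar, rRNA processing and RNA polymerase I genes, a rule that uses no measured values, and all 33 were found among the 27179 genes of the count table. All 33 also passed the filter on low counts, which left 14855 genes to be tested. The expression of these genes was compared between cancer-associated fibroblasts (CAFs) without and with the surface protein CD34, sorted from mouse mammary tumors and measured by bulk RNA sequencing.

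Each of 3 tumors from raGFP-Wnt1 mice gave a CD34 negative and a CD34 positive library, so 6 libraries were available, 3 per group. All animals carried the MMTV-Wnt1 transgene of the FVB/NJ strain, in which a viral promoter active in mammary epithelium drives Wnt1 and tumors form, and were heterozygous for a C57BL/6 knock-in that places nuclear H2B-GFP under the control of the Pdgfra locus. Cells were gated on GFP and then on CD34. The tumors came from female mice whose age is not given in the sources used here. The reporter marks every cell that uses Pdgfra, so the gate selects fibroblasts only as far as that gene is restricted to them. A library is named negative or positive with the number of its tumor, and the libraries of one tumor are a pair.

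Ribosomes are assembled in the nucleolus, where RNA polymerase I transcribes the repeated rRNA genes into a long precursor. Small nucleolar ribonucleoproteins (snoRNPs) modify this precursor, the box C/D class by methylating riboses and the box H/ACA class by converting uridines to pseudouridines. A large assembly termed the small subunit processome then folds and cuts the transcript, and separate sets of assembly factors mature the small and the large subunit before export. The output of the pathway is known to follow cell growth and division, and many of its genes are textbook targets of the transcription factor MYC. CAFs are known mainly for the matrix and signals that they secrete, whose synthesis also depends on ribosomes.

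The libraries held between 16238059 and 86609267 counts, and the lowest count of any of the 33 genes in any library was 60. Cd34, the gene of the sorted protein, was at 74.3 ± 30.2 counts per 1000000 counts (CPM) in the CD34 negative group, against 948 ± 571 CPM in the CD34 positive group (SD, n = 3), and was lower in the CD34 negative library of 3 of 3 tumors. The fibroblast genes Dcn, Lum, Pdgfra and Col1a2 had counts in all 6 libraries, with Pdgfra between 311 and 503 CPM. Negative library 3 had counts for the fewest genes, 14314 against up to 19220 in the others. No replicates of a group agreed within sampling noise.

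Promoter sequence was available for 28 of the 33 genes in the RefSeq annotation of GRCm38.p6, as windows that run from 250 bases before to 50 bases after each transcription start. The promoters of Nop58 and Dkc1 are shown because limma-voom called both genes below with the tumor as a block, and Npm1, the other gene it called, had no window. The promoter of Rrn3, which encodes the initiation factor of RNA polymerase I, is shown for contrast and was chosen after its letters were read. It holds both motifs that were searched, the E-box bound by MYC (CACGTG, which reads the same on both strands) and a core bound by ETS factors (CCGGAAG on either strand, so CTTCCGG where it lies on the other strand). Motifs are in capitals, and each sequence runs 5′ to 3′ on the strand of its gene.
Nop58 (chr1:59684756-59685055, plus strand): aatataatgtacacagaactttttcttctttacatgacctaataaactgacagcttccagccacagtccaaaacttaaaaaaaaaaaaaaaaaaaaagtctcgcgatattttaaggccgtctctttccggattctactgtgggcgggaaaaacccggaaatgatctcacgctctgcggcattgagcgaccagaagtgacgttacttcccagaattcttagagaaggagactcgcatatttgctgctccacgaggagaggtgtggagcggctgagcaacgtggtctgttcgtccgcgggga
Dkc1 (chrX:75095604-75095903, plus strand): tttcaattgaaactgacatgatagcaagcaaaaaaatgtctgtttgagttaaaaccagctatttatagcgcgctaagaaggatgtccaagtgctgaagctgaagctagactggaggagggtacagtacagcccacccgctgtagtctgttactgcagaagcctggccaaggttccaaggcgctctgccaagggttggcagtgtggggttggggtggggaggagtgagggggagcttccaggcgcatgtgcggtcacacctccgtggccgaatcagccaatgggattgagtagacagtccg
Rrn3 (chr16:13780449-13780748, plus strand): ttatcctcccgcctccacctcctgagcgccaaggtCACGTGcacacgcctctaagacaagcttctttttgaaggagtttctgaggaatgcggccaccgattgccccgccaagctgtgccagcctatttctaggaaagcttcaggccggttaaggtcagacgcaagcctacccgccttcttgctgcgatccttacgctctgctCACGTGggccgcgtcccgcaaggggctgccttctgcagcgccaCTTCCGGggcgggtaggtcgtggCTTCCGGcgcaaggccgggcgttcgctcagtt
The Rrn3 window held 2 E-boxes and 2 ETS cores, and neither motif occurred in the windows of Nop58 and Dkc1. Among the 28 genes, 7 had an E-box (Ltv1, Mybbp1a, Nop2, Pes1, Rrn3, Tsr1 and Wdr43), 9 had an ETS core, 4 had both and 16 had neither. As a share of windows, 21.9% of the 32 windows of these genes held an E-box, against 7.15% of all 32851 windows in the annotation and 9.63% of those of the genes tested. The ETS core was in 31.2% of their windows, against 8.86% of all windows and 16.1% of those of tested genes. Related genes, described further down, were searched in the same way. Windows of other ribosome biogenesis genes held an E-box in 17.2% and an ETS core in 44.8%. For cytosolic ribosomal protein genes the shares were 11.6% and 36.2%, so the ETS core was not particular to the 33 genes. A match is a run of letters and not a measured binding site. The 7 genes with an E-box had a median log2 fold change between the fractions of -0.16 (range -0.353 to 0.0854). The 21 without one had a median of -0.33 (range -1.33 to 0.117), so the ranges overlapped. The split by ETS core went the same way, with medians of -0.23 for the 9 genes with it and -0.35 for the 19 without. Neither split was tested.

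The summed level of the 33 genes was lower in CD34 negative than in CD34 positive CAFs in every tumor. The sum, as CPM of the library total, was 1492, 1514 and 1589 in negative libraries 1, 2 and 3 and 2070, 2135 and 1863 in positive libraries 1, 2 and 3, so that the groups did not overlap. These sums were 0.149% to 0.159% of all counts in CD34 negative and 0.186% to 0.213% in CD34 positive CAFs. In bulk RNA, fewer cells of a type and less RNA per cell cannot be told apart. Without the genes Nop58, Dkc1 and Npm1 the other 30 summed to between 1017 and 1307 CPM without CD34 and between 1277 and 1592 CPM with CD34, ranges that overlapped, although the CD34 negative library was lower in 3 of 3 tumors.

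Differences of single genes were tested with limma-voom across all 14855 genes, with log2 fold changes above 0 for genes higher in CD34 negative CAFs. Of the 33 genes, 30 had a log2 fold change below 0 and 3 (Bysl, Wdr43 and Rrn3) one above 0, where 7774 of all 14855 genes were below 0. The median was -0.32, against -0.03 over all genes tested. In the test without a term for the tumor, 0 of the 33 had an adjusted p under 0.05 in either direction, where 0.101% of all genes were called lower and 0.0202% higher. Without that term, edgeR and DESeq2 also called 0 of them lower, with a background of 0.0606% in edgeR and 2.59% in DESeq2. An unadjusted p under 0.05 with a lower level was reached by 6 genes (Nop56, Dkc1, Wdr12, Rrs1, Gnl3 and Npm1) in limma-voom, which is 18.2% of the 33 against 7.10% of all genes tested, and by 5 each in edgeR and DESeq2. None reached it with a higher level.

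With the tumor as a block, which compares the fractions within each tumor, limma-voom called Nop58, Dkc1 and Npm1 lower in CD34 negative CAFs. These 3 genes are 9.09% of the 33, and 4.25% of all genes were called lower in that fit. It called 4.32% of all genes higher and 0 of the 33. In that fit 27 of the 33 genes were below 0, with a median of -0.24, against -0.0099 over all genes tested. In edgeR with the block, 24 were below 0, with a median of -0.20. With the block, edgeR called Nop58 alone, where 2.11% of all genes were called lower, and DESeq2 called Nop58, Dkc1, Npm1, Wdr12 and Gnl3, where 6.02% were. In blocked limma-voom fits that left out a tumor, 3 genes were called lower without tumor 1, where 3.51% of all genes were. Without tumor 2 it was 1 gene, where 2.92% were, and without tumor 3 it was 6 genes, where 7.32% were. With the few libraries left in such fits, their p-values rest largely on variance pooled over all genes. Of the 33 genes, 14 were lower in the CD34 negative library of 3 of 3 tumors and 0 were higher in 3 of 3, against 23.4% and 22.8% of all genes tested. For 9 genes (Nop56, Dkc1, Nolc1, Nob1, Wdr12, Nop2, Gnl3, Ncl and Npm1), all CD34 negative libraries lay below all CD34 positive libraries, against 10.0% of all genes tested.

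**Figure D1:**
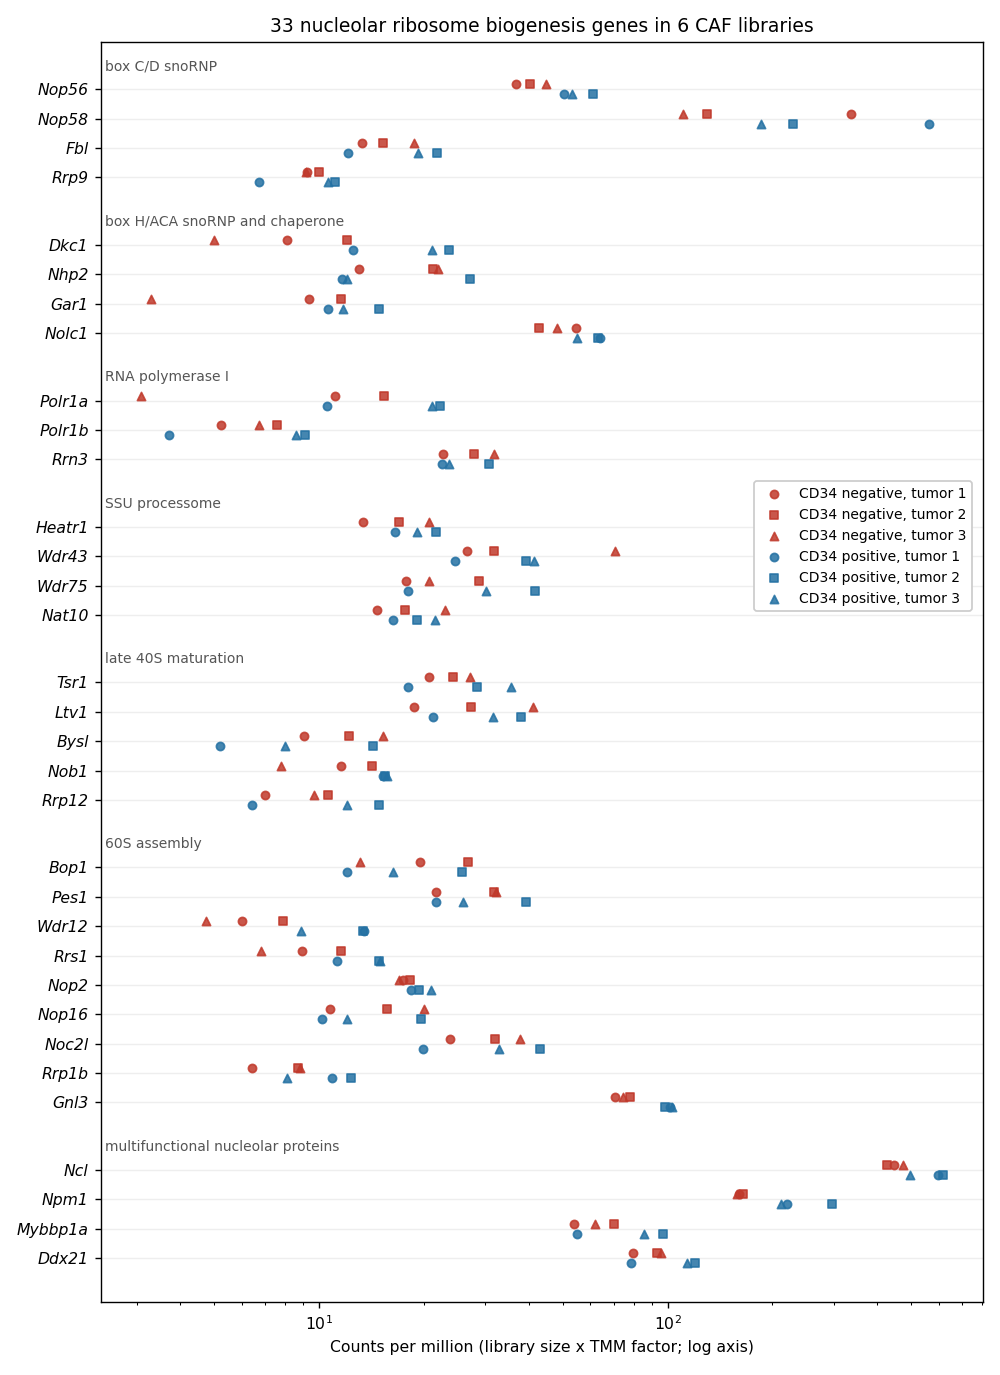
Level of each of the 33 genes (rows, grouped by role) in the 6 libraries, in CPM on a log axis; red points are CD34 negative and blue points CD34 positive libraries, and the point shape gives the tumor. Levels ran from 3.08 CPM for Polr1a in negative library 3 to 617 CPM for Ncl in positive library 2, and the blue points of Gnl3 and Npm1 lie to the right of all red ones.

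The ratios were not the same size in every tumor, and the difference between tumors was not tested. The median of the 33 log2 ratios was -0.03 within tumor 1, -0.37 within tumor 2 and -0.25 within tumor 3, and 19, 32 and 22 of the genes were below 0. Positive library 2 held the highest of the 6 values for 18 of the 33 genes, and positive library 1 held the lowest for 14. Without positive library 2 the median log2 fold change was -0.18 and 24 genes were below 0, as was the case without negative library 1. Positive library 2 also had the highest summed level of 19 proliferation genes, described further down.

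**Figure D2:**
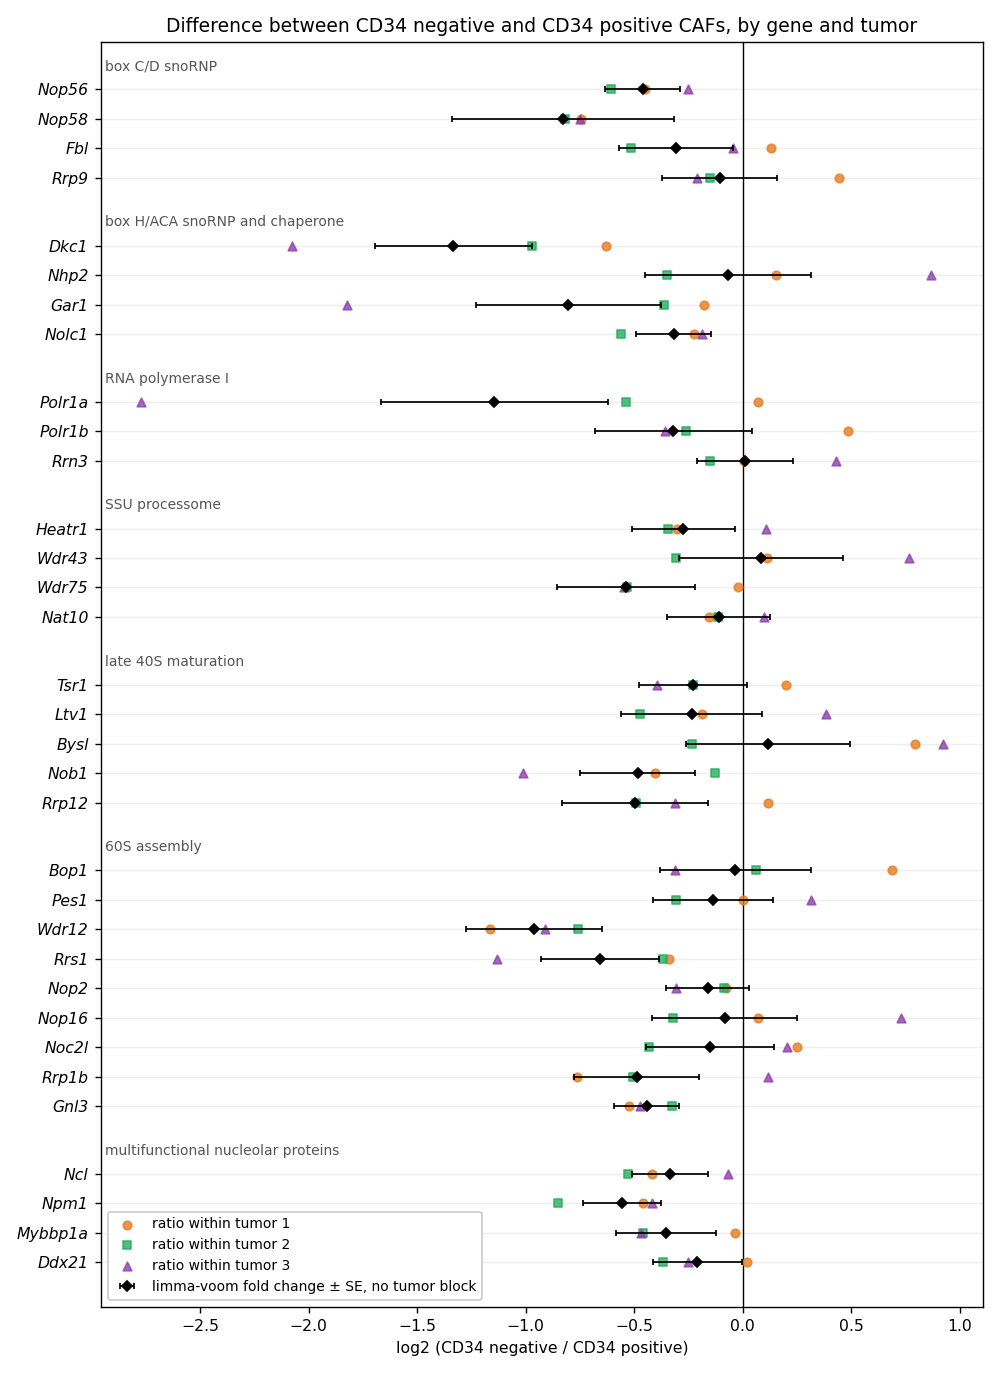
Log2 ratio of CD34 negative to CD34 positive CAFs for each gene; colored points are the ratios within tumors 1, 2 and 3, and black diamonds with bars are the limma-voom log2 fold changes with their standard errors, fitted without the tumor block. The 3 ratios of Nop58 lie between -0.82 and -0.75, whereas those of Polr1a run from -2.77 to 0.07.

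The box C/D snoRNP genes had a median log2 fold change of -0.38, which was -0.23 without positive library 2, and all 4 were below 0. Nop58, which encodes a core protein of the box C/D particle (gene 55989, chromosome 1, 59684961 to 59711510 in GRCm38.p6, a protein-coding gene), was at 336, 130.0 and 111 CPM in negative libraries 1, 2 and 3 and at 564, 229 and 186 CPM in positive libraries 1, 2 and 3. Both libraries of tumor 1 were higher than all others, so the groups overlapped although the CD34 negative library was lower in each pair. Its log2 ratio within tumors 1, 2 and 3 was -0.75, -0.82 and -0.75. Unblocked limma-voom gave a log2 fold change of -0.83 ± 0.51 (SE) at an adjusted p of 0.499. Blocked by tumor, it gave -0.77 ± 0.12 at an adjusted p of 0.00562. In the fits with the block that each left out a tumor, its adjusted p ran from 0.00273 to 0.0242 in limma-voom. Unblocked, its fold change moved to -0.29 when positive library 1 was left out and to -1.31 when negative library 1 was. RefSeq places 4 snoRNA genes inside Nop58, and those with their own row in the table held 62 counts against 62759 for Nop58.

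Nop56, the partner of Nop58 in the core of the particle (gene 67134, chromosome 2, 130274367 to 130279313), was at 36.9, 40.2 and 44.7 CPM in negative and 50.3, 61.3 and 53.1 CPM in positive libraries 1, 2 and 3. The groups did not overlap. Its log2 fold change was -0.46 ± 0.17, and the limma-voom adjusted p was 0.292 unblocked and 0.107 blocked by tumor. Without tumor 3, the adjusted p with the block was 0.0316. Exons of Idh3b on the opposite strand share 0.262% of its exon bases. Fbl, the methyltransferase fibrillarin, and Rrp9, a protein of the box C/D particle that guides precursor cleavage, had fold changes of -0.31 ± 0.26 and -0.11 ± 0.26, and each was higher in the CD34 negative library of tumor 1.

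The box H/ACA genes had a median of -0.56. It was the most negative of the role groups with all libraries, but was -0.33 without negative library 3, where box C/D had -0.46. Dkc1 encodes dyskerin, the pseudouridine synthase of the particle and a component of telomerase (gene 245474, chromosome X, 75095854 to 75109776, protein-coding). It was at 8.08, 12.1 and 4.98 CPM in negative libraries 1, 2 and 3 and at 12.5, 23.6 and 21.1 CPM in positive libraries 1, 2 and 3. The groups did not overlap, but negative library 2 and positive library 1 were close. Its log2 fold change of -1.33 ± 0.36 was the largest in size among the 33, and unblocked limma-voom gave it an adjusted p of 0.159. Blocked by tumor, the change was -1.16 ± 0.29 at an adjusted p of 0.0365. The log2 ratios within tumors 1, 2 and 3 were -0.63, -0.97 and -2.08. With the block, it passed without tumor 1 and without tumor 3, where its change was -0.87, and its limma-voom adjusted p was 0.0554 when tumor 2 was left out. A share of 1.6% of its exon bases overlaps exons of Mpp1 on the opposite strand, and the library kit does not mark strand.

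The other H/ACA genes were not called in limma-voom with or without the block. Gar1, a core protein of the particle (gene 68147), was at 9.38, 11.6 and 3.30 CPM in negative and 10.6, 14.9 and 11.7 CPM in positive libraries 1, 2 and 3, with a log2 fold change of -0.80 ± 0.43 and limma-voom adjusted p values of 0.436 unblocked and 0.315 blocked. Its fold change was -0.34 without negative library 3, the library with its lowest value. Nhp2, another core protein (gene 52530), was at 13.0, 21.3 and 21.9 CPM in negative and 11.6, 27.1 and 12.0 CPM in positive libraries, with a fold change of -0.07 ± 0.38. The groups overlapped, and the change was 0.06 with the block, since Nhp2 was higher in the CD34 negative library in tumors 1 and 3. Nolc1, a phosphoprotein that escorts snoRNPs (gene 70769), was at 54.8, 42.8 and 48.2 CPM in negative and 63.9, 63.1 and 54.8 CPM in positive libraries. The groups did not overlap, although positive library 3 and negative library 1 were close. Its fold change was -0.32 ± 0.17, with limma-voom adjusted p values of 0.449 unblocked and 0.202 blocked.

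Of the RNA polymerase I genes, none of the 3 was called in limma-voom with or without the block, and their fold changes spread widely. Their median was -0.32, and was -0.14 without negative library 1, -0.00434 without positive library 2 and -0.50 without positive library 1. Polr1a, the catalytic subunit (gene 20019, chromosome 6, 71909053 to 71979435), was at 11.1, 15.3 and 3.08 CPM in negative and 10.5, 22.3 and 21.1 CPM in positive libraries 1, 2 and 3. Its log2 ratios within tumors 1, 2 and 3 were 0.07, -0.54 and -2.77, so the tumors disagreed in sign and size, and negative library 3 held the lowest value. The log2 fold change was -1.14 ± 0.52 (adjusted p of 0.369 in limma-voom) and -0.55 without negative library 3. Rrn3, which brings the polymerase to the promoter and is known as its link to growth signals (gene 106298), was at 22.7, 27.8 and 31.8 CPM in negative and 22.6, 30.8 and 23.6 CPM in positive libraries. Its fold change was 0.01 ± 0.22, and it was below 0 without TMM scaling and with the gene length trend removed. Polr1b, another core subunit, had a fold change of -0.32 ± 0.36.

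**Figure D3:**
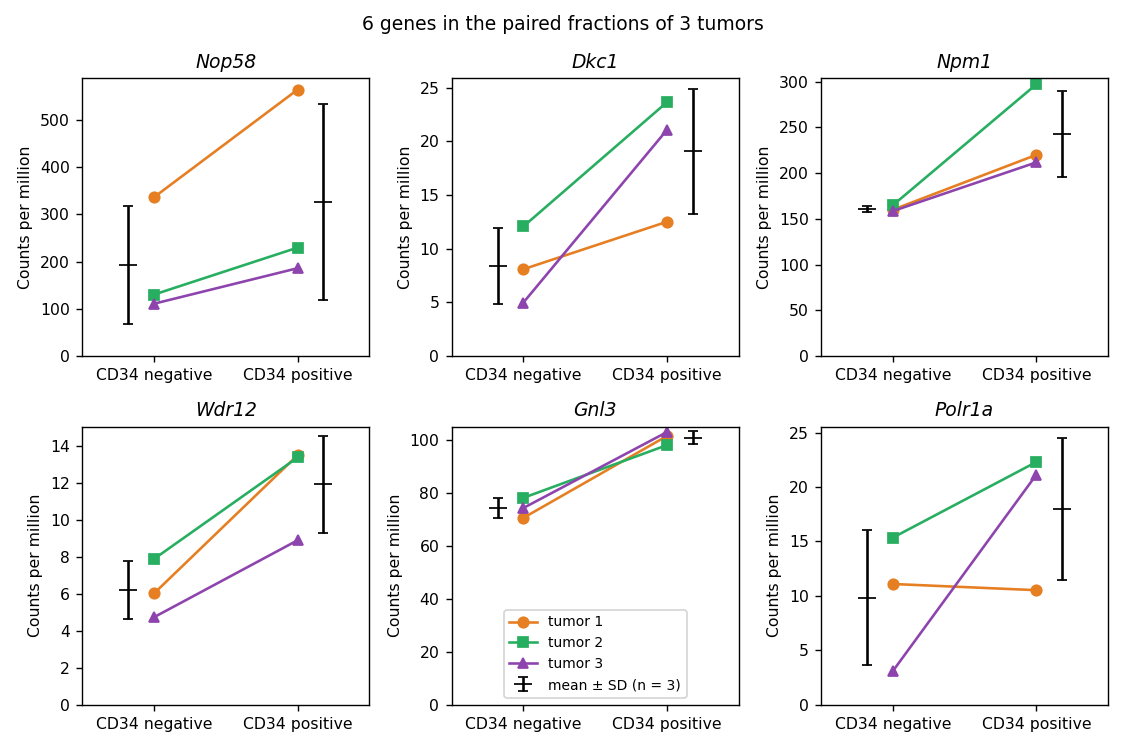
Level of Nop58, Dkc1, Npm1, Wdr12, Gnl3 and Polr1a in CPM on linear axes from 0; each line joins the CD34 negative and CD34 positive library of a tumor, and black marks are the group mean with SD (n = 3). Every line rises toward CD34 positive CAFs except that of Polr1a in tumor 1, which falls from 11.1 to 10.5 CPM.

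The small subunit processome genes had a median log2 fold change of -0.19, and 3 of 4 were below 0. Without negative library 1 the median was -0.02 with 2 of 4 below 0, and without negative library 3 it was -0.35. None was called in limma-voom with or without the block. Wdr43, a protein of the subcomplex that joins the nascent precursor first (gene 72515), was at 26.5, 31.7 and 70.7 CPM in negative and 24.5, 39.3 and 41.5 CPM in positive libraries 1, 2 and 3. Negative library 3 held the highest value, and the fold change of 0.09 ± 0.38 turned to -0.17 with sample quality weights. Wdr75, of the same subcomplex (gene 73674), was at 17.7, 28.7 and 20.6 CPM in negative and 17.9, 41.5 and 30.2 CPM in positive libraries, with a fold change of -0.54 ± 0.32 and limma-voom adjusted p values of 0.483 unblocked and 0.184 blocked. It was lower in 3 of 3 tumors, with a log2 ratio of only -0.02 in tumor 1. Heatr1, also of this subcomplex, and Nat10, an RNA acetyltransferase, had fold changes of -0.27 ± 0.24 and -0.11 ± 0.24.

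Genes of late small subunit maturation had a median of -0.24, which was -0.12 without negative library 1, -0.13 without positive library 2 and -0.40 without positive library 1. None of the 5 was called in limma-voom with or without the block. Ltv1, an assembly factor on the exported particle (gene 353258), was at 18.7, 27.4 and 41.2 CPM in negative and 21.3, 38.0 and 31.5 CPM in positive libraries 1, 2 and 3. The groups overlapped, and its fold change was -0.24 ± 0.32. Tsr1, a factor that resembles a translation GTPase (gene 104662), was at 20.7, 24.2 and 27.1 CPM in negative and 18.01, 28.4 and 35.6 CPM in positive libraries, also with overlap. Its fold change was -0.23 ± 0.25, and 34.2% of its exon bases overlap exons of Srr on the opposite strand. Nob1, the nuclease that makes the final cut of the small subunit rRNA, was at 11.6, 14.2 and 7.78 CPM in negative and 15.3, 15.5 and 15.7 CPM in positive libraries. It was the member of this role group in which the libraries of the fractions did not overlap. Its fold change was -0.48 ± 0.26 (adjusted p of 0.449 in limma-voom). Rrp12, an export factor, had a fold change of -0.49 ± 0.34, and Bysl, a factor needed for early cleavage, one of 0.12 ± 0.38, the highest of the 33, which was -0.05 with the gene length trend removed. Of the exon bases of Bysl, 9.37% overlap exons of Ccnd3 on the opposite strand.

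Among the 9 genes of large subunit assembly, the median was -0.16 and the largest difference was in Wdr12. The median was -0.27 without negative library 2, -0.25 without negative library 3, -0.36 without positive library 1 and -0.24 without positive library 3. Wdr12 is a subunit of the PeBoW complex, which it forms with Pes1 and Bop1 (gene 57750, chromosome 1, 60071361 to 60098500, protein-coding). It was at 6.02, 7.88 and 4.73 CPM in negative and 13.5, 13.4 and 8.89 CPM in positive libraries 1, 2 and 3, so that the groups did not overlap. Its log2 fold change was -0.96 ± 0.31, and the adjusted p was 0.225 (limma-voom, no block), 0.0731 (limma-voom, block) or 0.0308 (DESeq2, block). Pes1 and Bop1 had fold changes of -0.14 ± 0.28 and -0.03 ± 0.35, Bop1 turned to 0.09 with the block, and no test compared the 3 genes with each other.

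Gnl3, the nucleolar GTPase nucleostemin (gene 30877, chromosome 14, 31012433 to 31019131), was at 70.6, 78.1 and 74.3 CPM in negative and 102, 98.1 and 103 CPM in positive libraries 1, 2 and 3. The spread within each group was small beside the gap between the groups, with means of 74.3 ± 3.78 and 101 ± 2.53 CPM (SD, n = 3). The log2 fold change came to -0.44 ± 0.15, and the adjusted p was 0.244 (limma-voom, no block), 0.0734 (limma-voom, block) or 0.0385 (DESeq2, block). Rrs1, which helps to place ribosomal proteins and the small rRNA of the large subunit (gene 59014), was at 8.92, 11.5 and 6.82 CPM in negative and 11.3, 14.9 and 14.96 CPM in positive libraries. Positive library 1 lay just below negative library 2, and the fold change was -0.66 ± 0.27 (adjusted p of 0.329 in limma-voom).

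The remaining large subunit genes were not called in limma-voom with or without the block. Noc2l, a pre-ribosome factor that also binds histones (gene 57741), was at 23.7, 31.9 and 37.8 CPM in negative and 19.9, 43.0 and 32.8 CPM in positive libraries 1, 2 and 3. The groups overlapped, its fold change was -0.15 ± 0.30, and 20.9% of its exon bases overlap exons of Samd11 on the opposite strand. Nop2, an rRNA cytosine methyltransferase, lay at 16.9 to 18.3 CPM without CD34 and 18.3 to 20.9 CPM with CD34, apart by a narrow margin, with a fold change of -0.16 ± 0.19. Nop16 and Rrp1b, nucleolar proteins of the large subunit pathway, had fold changes of -0.08 ± 0.33 and -0.49 ± 0.29.

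The multifunctional nucleolar proteins were among the most abundant of the 33 and were all below 0, with a median of -0.34. Npm1, the histone and ribosome chaperone nucleophosmin (gene 18148, chromosome 11, 33152498 to 33164142, protein-coding), was at 159.9, 165 and 158 CPM in negative and 219.9, 297 and 212 CPM in positive libraries 1, 2 and 3. The CD34 negative libraries lay close together and below every CD34 positive library. Its log2 fold change was -0.56 ± 0.18, and unblocked limma-voom gave it an adjusted p of 0.222. Blocked by tumor, the change was -0.58 ± 0.14 at an adjusted p of 0.0302. With the block, it passed without tumor 1 and without tumor 3, and had a change of -0.45 and a limma-voom adjusted p of 0.355 when tumor 2 was left out.

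Ncl, which encodes nucleolin, an RNA-binding protein of the precursor rRNA (gene 17975, chromosome 1, 86344719 to 86359455), was at 448, 428 and 474 CPM in negative and 598, 617 and 497 CPM in positive libraries 1, 2 and 3. The groups did not overlap, but the gap in tumor 3 was small, with a log2 ratio of -0.07. Its fold change was -0.33 ± 0.17, and the limma-voom adjusted p was 0.429 unblocked and 0.171 blocked by tumor, and 0.0324 with the block and without tumor 3. Mybbp1a, a nucleolar protein that binds several transcription factors, and Ddx21, an RNA helicase, had fold changes of -0.35 ± 0.23 and -0.21 ± 0.20, and Mybbp1a was lower in 3 of 3 tumors.

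Per kilobase of gene length, Nop58 had the highest mean level of the 33, at 97.3 CPM per kb without CD34 and 165 CPM per kb with CD34. Npm1 followed at 93.7 and 141 CPM per kb, Ncl at 54.5 and 69.1 and Gnl3 at 39.5 and 53.5. The place of Nop58 above Npm1 rested on tumor 1, since in tumors 2 and 3 Nop58 lay below Npm1 per kilobase, so the order of these genes is not beyond their spread. The table gives Ncl a merged exon length of 8257 bases, on which its level per kb depends. The RNA polymerase I subunits were the least abundant together with Rrp1b, with Polr1b at 1.63 and 1.79 CPM per kb and Polr1a at 1.61 and 2.94.

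Other genes of the pathway were read against the same background. Of 120 further ribosome biogenesis genes tested, 89 had a fold change below 0, and the median was -0.19. Limma-voom called 0 of them with or without the block. Without it, 7 had an unadjusted p under 0.05 with a lower level, against 7.10% of all genes tested. DESeq2 called 3 lower with the block and 1 without it, where 6.02% and 2.59% of all genes were called lower. Blocked limma-voom called 2 lower without tumor 2 and 5 without tumor 3, where 2.92% and 7.32% of all genes were. None of these counts exceeded the share over all genes. The median was -0.07 without negative library 1, with 73 genes below 0. In 3 of 3 tumors 38 were lower and 9 higher, against 23.4% and 22.8% of all genes tested. All CD34 negative libraries lay below all CD34 positive ones for 14, against 10.0% of all genes, and above them for 2. The lowest adjusted p with the block was that of Rpf2, a large subunit factor that acts with Rrs1, at 0.0604 in limma-voom. Rpf2 was at 5.34 ± 2.09 CPM without CD34 and 12.7 ± 2.42 CPM with CD34 (SD, n = 3), and was named after its values were seen.

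Transcripts of the ribosomal proteins themselves were also mostly below 0. Of 80 cytosolic ribosomal protein genes, 75 were below 0, with a median of -0.45. In 3 of 3 tumors 58 were lower, against 23.4% of all genes tested. Limma-voom called 0 of them lower without the block and 29 with it, against 4.25% of all genes with the block. Without it, 39 had an unadjusted p under 0.05 with a lower level, against 7.10% of all genes. With the block edgeR called 19 lower and DESeq2 37, where 2.11% and 6.02% of all genes were called lower. Blocked limma-voom called 15 lower without tumor 2, where 2.92% of all genes were. Without the block, DESeq2 called 25 lower and edgeR 0, where 2.59% and 0.0606% of all genes were. Limma-voom with sample quality weights called 14 lower, where 115 of 14855 genes were. For 50 of the 80, all CD34 negative libraries lay below all CD34 positive ones, against 10.0% of all genes tested, and for 1 they lay above. Their summed level ran from 10026 to 11102 CPM without CD34 and from 13132 to 14812 CPM with CD34. Rps23, Rps6 and Rps24 of the small subunit and Rpl5 of the large subunit had the lowest adjusted p with the block, with fold changes of -1.21, -1.18, -0.93 and -0.93 and adjusted p from 0.00225 to 0.00337 in limma-voom with the block. Ribosomal protein genes have many near-identical pseudogene copies, so their counts are uncertain.

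Factors of the MYC network, 11 genes tested, include MYC and factors that oppose it, so their median mixes opposed roles. It was 0.06, above 0 in 18 of the fits and below 0 in 7. Of the 11 genes, 4 had a fold change below 0 and 7 above 0. In 3 of 3 tumors 2 of the genes were lower and 3 higher, against 23.4% and 22.8% of all genes tested. Limma-voom called 0 of them without the block, where 1 had an unadjusted p under 0.05 in each direction. With the block it called 1 lower, against 4.25% of all genes. DESeq2 called 1 lower with and without the block, against 6.02% and 2.59% of all genes. Myc itself was at 239.9 ± 45.7 CPM without CD34 and 455 ± 28.7 CPM with CD34 (SD, n = 3), lower in 3 of 3 tumors. Its log2 fold change was -0.95 ± 0.20, and the limma-voom adjusted p was 0.0906 unblocked and 0.0038 blocked by tumor. Of 14 long noncoding host genes of snoRNAs tested, 7 were below 0, the median was -0.03, which was -0.23 without positive library 2, and limma-voom called 0 with or without the block, where 1 had an unadjusted p under 0.05 in each direction without it. With the block, it called 2 lower without tumor 3, where 7.32% of all genes were called lower. It called 1 higher without tumor 2, where 424 of 14634 genes were called higher. The median of the host genes was above 0 in 3 of the fits, up to 0.0535 without tumor 1 and without the block.

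**Figure D4:**
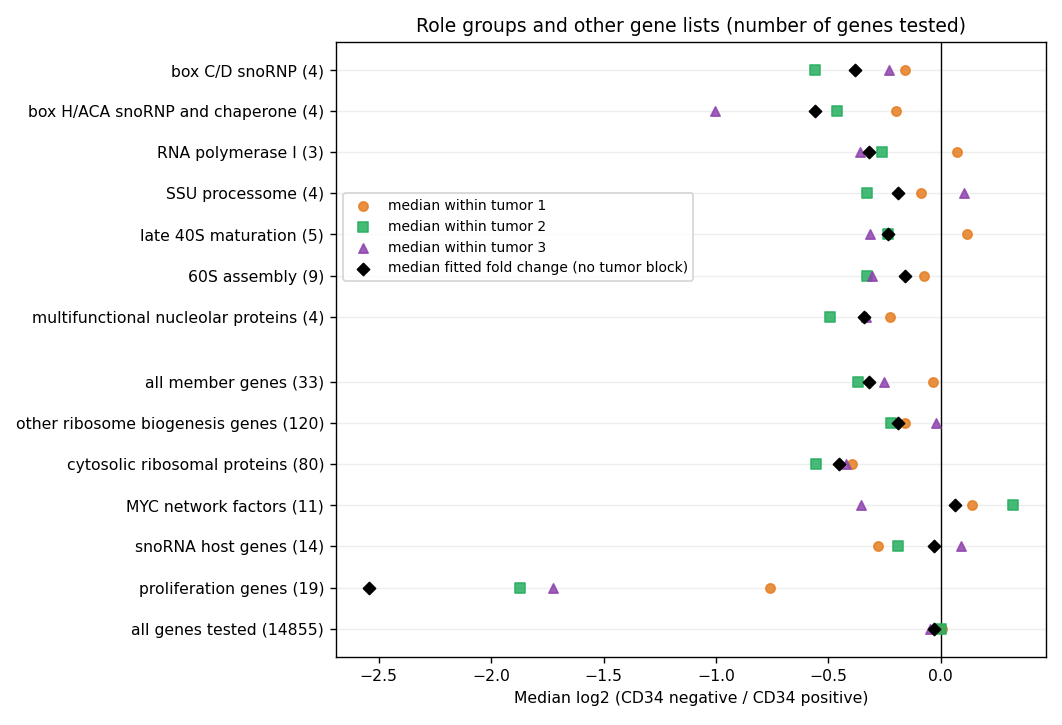
Median log2 ratio of CD34 negative to CD34 positive CAFs for the 7 role groups, all 33 member genes, 5 other gene lists and all genes tested, with the number of genes tested in parentheses; colored points are medians within tumors 1, 2 and 3, and black diamonds are medians of the limma-voom log2 fold changes without the block. Cytosolic ribosomal proteins lie between -0.55 and -0.39 in the 3 tumors and proliferation genes between -1.87 and -0.76.

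Proliferation genes, whose expression follows the share of dividing cells, also had fold changes below 0. All 19 were below 0, with a median of -2.55 without the block and -1.84 with it. Limma-voom called 9 lower with the block, where 4.25% of all genes were called lower, and 0 without it. At an unadjusted p under 0.05, 9 were lower without the block, against 7.10% of all genes tested. Top2a was at 9.98 ± 9.92 against 45.0 ± 52.7 CPM and Mki67 at 15.6 ± 9.47 against 56.7 ± 45.6 CPM (SD, n = 3), and the blocked limma-voom fit gave adjusted p of 0.00164 and 0.00233. The 19 genes summed to between 115 and 231 CPM without CD34 and between 189 and 702 CPM with CD34, with the highest sum in positive library 2. Without that library their median was -1.09. With the block, edgeR called 3 lower and DESeq2 11, where 2.11% and 6.02% of all genes were called lower. Blocked limma-voom called 2 lower without tumor 2 and 19 without tumor 3, where 2.92% and 7.32% of all genes were. The part of cell division in the differences of the 33 genes was not tested.

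Some markers of cell types differed between the groups. The 5 fibroblast markers summed to between 24064 and 37047 CPM without CD34 and between 25187 and 33415 CPM with CD34, and Dcn and Lum among them were called lower with the block, at limma-voom adjusted p values of 0.00154 and 0.0140. The pericyte markers Rgs5 and Mcam summed to between 41.7 and 46.7 CPM without CD34 and between 4.41 and 17.5 CPM with CD34, and Mcam was called higher with the block, at a limma-voom adjusted p of 0.00252. The keratinocyte markers Krtdap and Krt10 summed to between 1.08 and 3.62 CPM without CD34 and between 7.01 and 11.3 CPM with CD34. Krtdap was called lower with the block, at a limma-voom adjusted p of 0.0215. The Schwann cell marker Col20a1 was at 4.31, 3.94 and 7.14 CPM of the library total in negative and 1.35, 1.77 and 2.72 CPM in positive libraries 1, 2 and 3, without overlap, and its log2 fold change was 1.37 ± 0.47, with limma-voom adjusted p values of 0.247 unblocked and 0.116 blocked. The 5 epithelial markers summed to 131, 115 and 48.2 CPM in negative and 127, 74.4 and 17.0 CPM in positive libraries 1, 2 and 3. The groups overlapped, but the sum was higher in the CD34 negative library of 3 of 3 tumors. All 5 had fold changes above 0, with a median of 0.73, and limma-voom called 0 of them with or without the block, with 0 at an unadjusted p under 0.05 without it. Sums of the 3 endothelial markers (1.76 to 13.6 against 2.21 to 14.7 CPM), the 5 macrophage markers (13.3 to 16.3 against 8.93 to 16.3 CPM) and the 3 leukocyte markers (1.66 to 2.90 against 1.66 to 6.43 CPM) overlapped between the groups. The 4 muscle markers summed to between 2.80 and 13.7 CPM without CD34 and between 1.501 and 1.85 CPM with CD34, and Myf5 was at 0 in all 6 libraries. The gap in this sum rested on Des, at 2.68, 4.66 and 13.45 CPM in negative and 0.739, 1.37 and 1.25 CPM in positive libraries 1, 2 and 3. Des was called higher with the block, at a limma-voom adjusted p of 0.0362. Acta1 was lower in the CD34 negative library of 2 of 3 tumors. The part of these marker genes in the differences of the 33 genes was not tested.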

How the data were processed

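RNA of GFP-positive cells sorted by CD34 from 3 raGFP-Wnt1 tumors was sequenced from TruSeq RNA v2 libraries, a kit that does not mark strand, on an Illumina NextSeq instrument. The authors aligned the reads to GRCm38 (mm10) with Rsubread and deposited raw counts per NCBI gene from featureCounts, with no normalization. The setting for reads with several matches is not given in the sources used here, so genes with near-identical copies are uncertain. Groups came from the sample labels.

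From these counts, genes were filtered with filterByExpr (minimum count 10) and scaled by TMM in edgeR 4.0.16. Fractions were compared with limma-voom (limma 3.58.1, R 4.3.3) with two-sided tests and Benjamini-Hochberg adjustment over 14855 genes and a threshold of 0.05. The study's methods name this filter, TMM and voom and do not mention a term for the tumor, so the first fit had none. CPM of single genes use TMM-scaled library sizes, and summed CPM the library total. Of the 27179 genes, 1310 had no symbol and 6787 no count. Both fractions of a tumor share its number in the labels and came from the same tumor. Their deviations from the group means correlated at 0.373, 0.350 and 0.219 for tumors 1, 2 and 3, so the fit with the tumor as a block is given beside results that it changes. Alternatives were edgeR's quasi-likelihood test, DESeq2 1.42.0, limma-trend (prior count 2), sample quality weights, other scalings and filters, a gene length trend (loess, span 0.3), a threshold of 0.1 and leaving out libraries or tumors. The scripts were tested on simulated data. P-values without the block rest on the spread between the libraries of a group, across these tumors. P-values with the block rest on how far the differences within tumors vary from tumor to tumor. Blocked fits that left out a tumor measure little of that spread for a single gene. Their p-values therefore rest largely on the variance that limma pools over all genes.

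The member genes and all other lists were chosen with earlier results of these data known. Values in every library are given for genes called in either limma-voom fit, the 6 with the largest absolute fold change and the 2 most abundant of each role group. Of other lists, at most 4 called genes are given. Nob1 and the marker Col20a1 are given outside this rule, with their values known. Exon overlaps are from GENCODE M21, and positions and promoters from RefSeq GRCm38.p6. No promoter window was matched for Npm1, Fbl, Bop1, Rrs1 and Rrp12. A further marker list is not reported in full here.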

Additional observations from a re-analysis of the deposited data

How the results depend on the processing

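With 3 tumors, the spread between tumors limits the precision, and the least abundant values rest on as few as 60 counts. The number of the 33 genes called lower was 0 in limma-voom without the block, 3 with the replicate block, 1 with the block in edgeR and 5 with the block in DESeq2, and ran from 0 to 6 when a library or tumor was left out. With the block it was 1 without tumor 2 and 6 without tumor 3, where 2.92% and 7.32% of all genes were called lower. The paired limma-voom fit changed no call among the 33 other than Nop58, Dkc1 and Npm1. At a threshold of 0.1 without the block, limma-voom called 0 of them. The median fold change stayed below 0, from -0.48 with the gene length trend removed, which moved the median of all genes to -0.18, to -0.18 without negative library 1 or positive library 2. Of 33 genes, 21 kept their sign in all 24 alternatives and 12 did not.

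Signs turned with the block for Nhp2 (0.0576), Bop1 (0.0946) and Nop16 (0.0571). With the block in edgeR they turned for Rrp9 (0.0258), Nhp2 (0.22), Bop1 (0.14), Pes1 (0.000866), Nop16 (0.16) and Noc2l (0.00627), and in DESeq2 for Rrp9 (0.0133), Nhp2 (0.21), Bop1 (0.13) and Nop16 (0.15). Without the block, they turned in edgeR for Nhp2 (0.14), Bop1 (0.13) and Nop16 (0.14), in DESeq2 for Nhp2 (0.13), Bop1 (0.12) and Nop16 (0.13), and in limma-trend for Rrp9 (0.0302), Nhp2 (0.22), Bop1 (0.15), Pes1 (0.0023), Nop16 (0.16) and Noc2l (0.00889). Quality weights turned Nhp2 (0.0579), Wdr43 (-0.17) and Bop1 (0.29), no TMM scaling turned Rrn3 (-0.0141), and removal of the length trend turned Rrn3 (-0.16), Wdr43 (-0.0862) and Bysl (-0.0489). Leaving out a library or tumor gave ranges of -0.35 to 0.59 for Nhp2, -0.26 to 0.0530 for Nat10, -0.47 to 0.17 for Ltv1, -0.29 to 0.19 for Pes1, -0.35 to 0.49 for Nop16, -0.36 to 0.21 for Noc2l, -0.15 to 0.24 for Rrn3, -0.30 to 0.53 for Wdr43, -0.27 to 0.40 for Bop1, -0.0851 to 0.87 for Bysl, -0.21 to 0.0676 for Rrp9 and -0.45 to 0.00478 for Fbl. The cause was not tested.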
